A study of Homo sapiens with 6 samples.

Results

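Proteins made for secretion or for membranes enter the endoplasmic reticulum (ER) through a chain of machines, and 34 genes for these machines were examined here in RMS13 rhabdomyosarcoma cells: the signal recognition particle (SRP, 6 genes) and its receptor (2), the SEC61 channel with its partners (7), the translocon-associated protein (TRAP) complex (4), the signal peptidase (5) and the oligosaccharyltransferase (OST, 10). The genes were picked by name, as known subunits and partners of these complexes, but with earlier results of these data known. All 34 were found among the 55401 gene names of the expression tables. All 34 also reached a mean of 1 TPM in some group, the condition for testing, and were among the 15148 genes tested. RMS13 is an established human line of a childhood tumour with features of skeletal muscle, and MAL3-101 is a small molecule that inhibits HSP70 chaperones. The 3 groups, with 2 libraries each called A and B, were parental RMS13 cells given DMSO, the drug's solvent, parental RMS13 cells given 10 µM MAL3-101, and RMS13-R cells given 10 µM MAL3-101. Every exposure lasted 9 h, and all cells grew in RPMI medium with fetal bovine serum. RMS13-R is a derivative of RMS13 with derived resistance to MAL3-101, and the labels do not say whether it is 1 clone. RMS13-R cells without MAL3-101 were not analysed here, so the effect of the line and its answer to the compound cannot be told apart. The labels also do not say whether A and B came from separate cultures, and a p-value here rests on the spread between such libraries alone, which may be technical.

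The signal recognition particle binds a signal sequence as it leaves the ribosome and brings the ribosome to its receptor in the ER membrane, where the chain is passed into the SEC61 channel. The signal peptidase then cuts off the signal sequence, and the oligosaccharyltransferase moves a preassembled glycan from a lipid carrier onto asparagine residues of the chain, a step called N-glycosylation. BiP, encoded by HSPA5, is the HSP70 chaperone of the ER lumen and helps to draw chains through the channel, and many genes of this path are known targets of the unfolded protein response, the program that cells start when unfolded proteins gather in the ER.

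Levels are in TPM, transcripts per 1000000 transcripts, a unit that corrects for gene length but does not carry depth, which is unknown here. Several markers of the muscle lineage were high in these libraries: MYOD1 stood between 713.86 and 816.02 TPM in the parental libraries and at 485.69 and 484.03 TPM in the resistant ones. The summed level of the 11 myogenic markers found lay at 4093 to 4847 TPM with DMSO, 3323 to 3363 TPM in treated parental cells and 3586 to 3592 TPM in treated resistant cells. MYF5 was listed at 0 throughout, and MYH3 and MYH8 stayed under 2 TPM. Single markers moved both ways: in treated resistant cells CHRNA1, at 52.1 and 49.9 TPM, lay below all parental libraries, and MYOG, at 669 and 688 TPM, above them. The 5 leukocyte markers summed to under 2 TPM and the 3 endothelial markers found to under 1 TPM in each library, while the 6 epithelial markers summed to 12.7 to 17.0 TPM, 29.1 to 30 TPM and 0.85 to 1.36 TPM in the same order of groups. The 5 fibroblast markers summed to 47.4 to 53.3 TPM, 42.5 to 44.6 TPM and 142.7 to 143.2 TPM. The high resistant sum was that of COL3A1, at 28.5 and 32.3 TPM with DMSO and 133.6 and 134.9 TPM in treated resistant cells. COL1A1, PDGFRB and LUM were lowest in treated resistant cells, and DCN stayed under 1 TPM. The 3 plasma cell markers found summed to 43.9 to 59.1 TPM, 29.8 to 30.6 TPM and 34.7 to 35.9 TPM, nearly all of it SDC1. Mitochondrial ribosomal RNA took 0.53% to 0.57% of all TPM with DMSO, 1.92% to 1.97% in treated parental cells and 0.77% to 0.78% in treated resistant cells. The part of the marker levels in the results was not tested. With TPM computed without mitochondrially encoded genes, the counts of the genes higher and lower were 15 and 3, 4 and 18, and 7 and 12 in the 3 comparisons described next. The shares of all tested genes were then 22.5% and 18.1%, 21.8% and 33.7%, and 21.5% and 28.8%. In bulk RNA, fewer cells of a kind and less RNA per cell cannot be told apart.

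In parental cells with MAL3-101 against DMSO, 15 of the 34 genes rose and 3 fell, led by MAGT1, SEC63, SEC11C, TRAM1 and SRP19. The 15 are 44.1% of the set, where 22.6% of all tested genes rose, and the 3 are 8.82%, where 18.2% of all tested genes fell. A gene was called changed when its adjusted p was under 0.05 in limma on log2(TPM + 1), fitted over all 6 libraries and adjusted over all 15148 genes by Benjamini-Hochberg. The median log2 fold change was 0.11 for the 34 genes and 0.02 for all tested genes. The direction of these counts depends on the scaling: when libraries were scaled to their upper quartile, which moves the median of all genes from 0.02 to -0.10, 8 of the 34 were higher and 8 lower, against 15.6% and 28.5% of all genes, and with median-ratio scaling 13 were higher and 4 lower, against 21.1% and 20.7%. Leaving out 1 library gave medians of 0.09 to 0.16 for the 34 genes and -0.01 to 0.06 for all tested genes. Fewer of the 34 passed in each direction without any 1 treated library and more without either DMSO library, as for all tested genes.

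In treated resistant against treated parental cells, 18 of the 34 genes were lower and 4 higher, and MAGT1, SRP19, STT3B, SRPRB and SEC61A1 stood furthest apart. Those 18 are 52.9% of the set, where 34.8% of all tested genes were lower, and the 4 are 11.8%, where 21.3% were higher. The median log2 difference was -0.23 for the set and -0.10 for all tested genes. Median-ratio scaling, which moves the all-gene median to -0.00465, left 13 lower and 6 higher against 28.9% and 27.8% of all genes, and upper-quartile scaling, which moves it to 0.05, left 10 lower and 7 higher against 25.2% and 31.5% of all genes. Against parental cells with DMSO, treated resistant cells had 13 genes lower, 38.2% of the set against 29.7% of all tested genes, and 4 higher, 11.8% against 20.9%. Median-ratio scaling gave 10 higher and 11 lower, 29.4% and 32.4% of the set against 26.1% and 25.5% of all genes, so the share higher then lay above that of all genes and not below it. Upper-quartile scaling gave 7 higher and 12 lower, 20.6% and 35.3% against 23.3% and 27.7%. The median log2 difference from DMSO was -0.10 for the set, -0.12 without DMSO library A and -0.07 without DMSO library B. For all tested genes it was -0.06, -0.04 and -0.09. More of the set were called higher without either DMSO library, as for all tested genes. The 3 comparisons share libraries, so their values stand side by side and are not independent of each other.

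**Figure D1:**
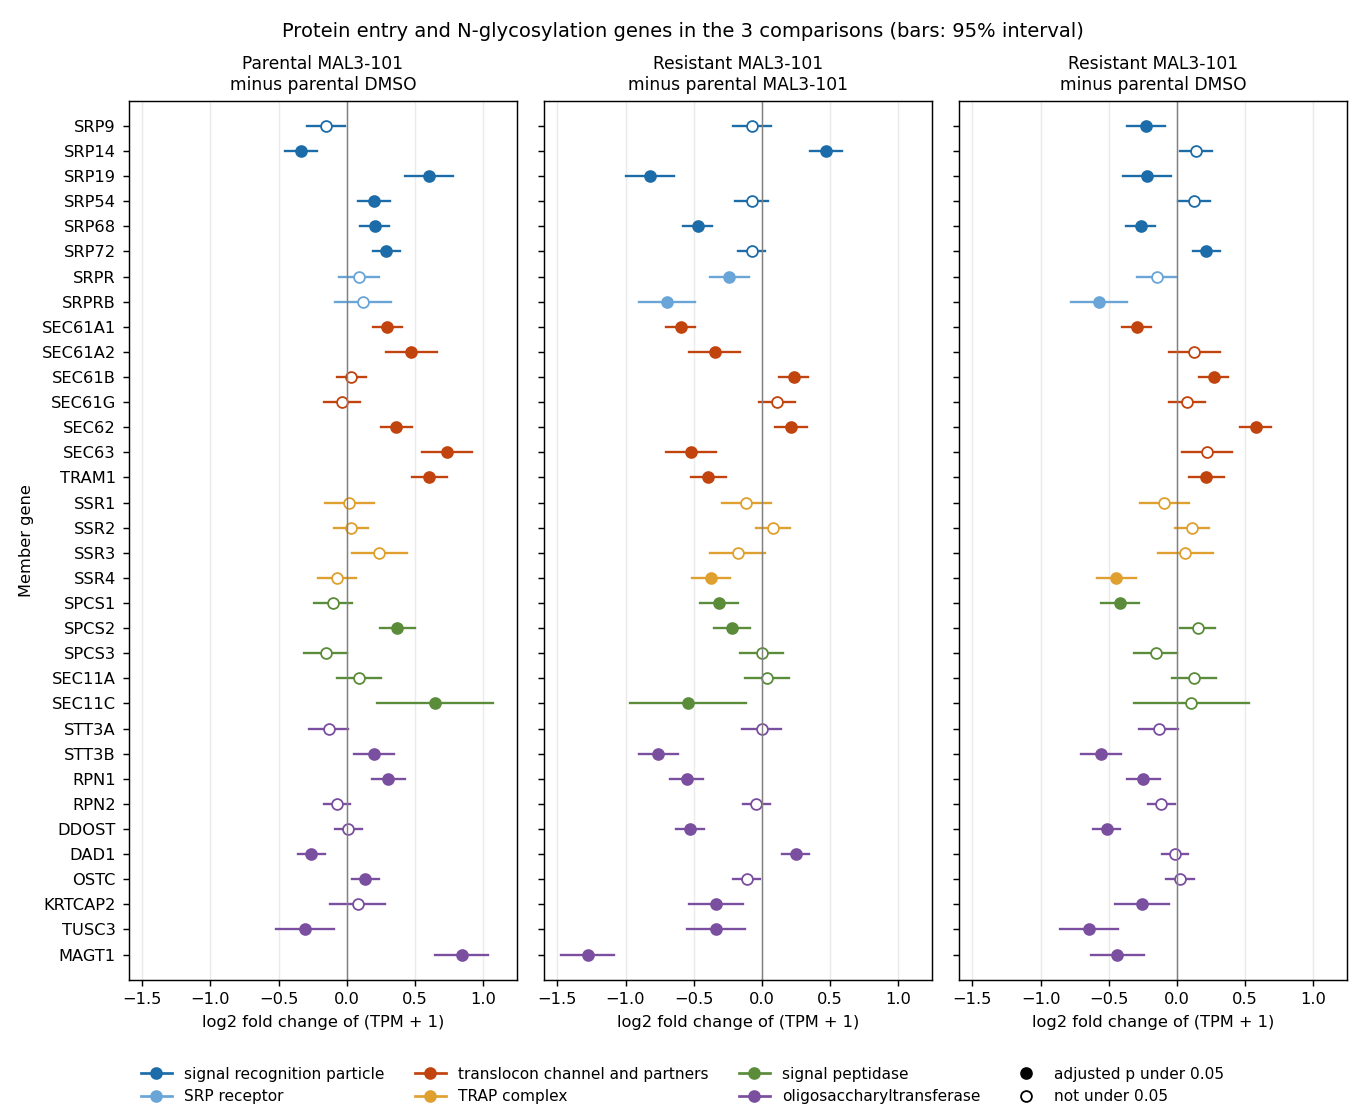
Log2 fold change of TPM + 1 for each of the 34 genes (rows, coloured by complex) in the 3 comparisons (panels), with bars for the 95% interval, and filled circles for an adjusted p under 0.05. MAGT1 lies furthest right in the left panel, at 0.84, and furthest left in the middle panel, at -1.28.

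The 34 transcripts were all well expressed, between 12.78 and 513.23 TPM in single libraries, and together made up 0.46% to 0.51% of all TPM in each library. SRP14, RPN2 and SRP9 were the 3 highest by mean in every group, and SEC61A2 and SEC11C the 2 lowest. The median of the group means was 109 TPM with DMSO, 116 TPM in treated parental cells and 100.2 TPM in treated resistant cells. Libraries A and B of a group differed by a median of 0.09 on the log2 scale with DMSO, 0.04 in treated parental and 0.04 in treated resistant cells. The widest gap within a group was that of SEC11C with DMSO, at 0.60. A difference of 0.5 or more on the log2 scale was reached by 5 of the 34 genes in parental cells with the drug, by 9 in treated resistant against treated parental cells and by 5 in treated resistant cells against DMSO. These are 14.7%, 26.5% and 14.7% of the set, below the 21.6%, 35.1% and 30.5% of all tested genes that reached it.

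Of the 6 proteins of the signal recognition particle, SRP9 and SRP14 form the domain that slows the ribosome, SRP54 binds the signal sequence, SRP19 helps SRP54 onto the particle's RNA, and SRP68 and SRP72 form a further pair. In treated parental cells, SRP19, SRP54, SRP68 and SRP72 rose and SRP14 fell. SRP19 stood at 83.7 and 72.4 TPM with DMSO (library A, then B, as in all values that follow), 115.0 and 122 TPM in treated parental cells and 67.4 and 65.8 TPM in treated resistant cells. Both treated parental libraries lay above the other 4, and both resistant libraries below them. The log2 fold change was 0.60 (SE 0.08, adjusted p = 0.0011, limma) with the drug in parental cells and -0.82 (SE 0.08, adjusted p = 0.000118) for treated resistant against treated parental cells. Against DMSO, the treated resistant libraries were lower by -0.22 (adjusted p = 0.0422), a call lost without any 1 of 5 libraries, DMSO B being the exception, with values from -0.12 to -0.33 over all libraries left out.

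SRP14 showed the opposite order; it was singled out after its values were seen. Its level was 445 and 476 TPM with DMSO, 372 and 357 TPM in treated parental cells and 499 and 513 TPM in treated resistant cells. The treated parental pair was the lowest and the resistant pair the highest, with no overlap between the groups. It fell by 0.34 on the log2 scale in parental cells (SE 0.05, adjusted p = 0.00228, limma) and was higher by 0.47 in treated resistant than in treated parental cells (SE 0.05, adjusted p = 0.000237). Resistant cells against DMSO gave 0.14 (adjusted p = 0.0556), which passed without DMSO library B at 0.18. It also passed with a filter of 5 TPM, with median-ratio scaling at 0.21, and without mitochondrially encoded genes. SRP9, its binding partner, went from 419 and 379.53 TPM with DMSO to 366 and 351 TPM in treated parental and 347 and 334 TPM in treated resistant cells. In treated parental cells both SRP9 and SRP14 lay below DMSO without overlap. In resistant cells SRP9 did not follow SRP14: SRP9 was lowest there, and SRP14 was highest. The SRP9 change in parental cells, -0.15, missed the threshold (adjusted p = 0.0741) and passed without DMSO library B at -0.22. It also passed with median-ratio and upper-quartile scaling, at -0.19 and -0.29, and with the replicate block. The SRP9 difference of resistant cells from DMSO, -0.23 (adjusted p = 0.0157), was lost without either resistant library, with values from -0.15 to -0.30 over the libraries left out.

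SRP72 rose in parental cells by 0.29 (adjusted p = 0.00205, limma), SRP68 by 0.21 (adjusted p = 0.0106) and SRP54 by 0.20 (adjusted p = 0.0179). With upper-quartile scaling these 3 values shrank to 0.15, 0.07 and 0.06 and none passed. SRP54 was also lost without either treated parental or either resistant library, at 0.19 to 0.21, and SRP68 without either treated parental library, at 0.18 to 0.23 over the libraries left out. SRP68 was lower in treated resistant than in treated parental cells by -0.47 (SE 0.05, adjusted p = 0.00015) and lower than with DMSO by -0.27 (adjusted p = 0.00244). Its pair partner SRP72 did not follow: the resistant libraries differed from treated parental ones by -0.07 (95% interval -0.17 to 0.02, adjusted p = 0.171), passing without DMSO library B at an adjusted p of 0.0499, and lay above DMSO by 0.22 (adjusted p = 0.00474), lost without resistant library A at an adjusted p of 0.0518. SRP54 in treated resistant cells lay -0.08 from treated parental cells and 0.12 from DMSO, with no call in either (adjusted p = 0.234 and 0.0778, limma). The latter passed without DMSO library A at 0.16, and with median-ratio and upper-quartile scaling.

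The SRP receptor consists of SRPR, the subunit that meets the particle (now named SRPRA), and SRPRB, which anchors it in the membrane. Neither passed in parental cells with the drug, and both were lower in treated resistant than in treated parental cells. Of all tested genes, 22.6% rose and 18.2% fell in the former comparison, and 34.8% were lower in the latter. SRPRB stood at 49.6 and 59.0 TPM with DMSO, 57.9 and 60.01 TPM in treated parental cells and 37.3 and 34.9 TPM in treated resistant cells. The DMSO and treated parental libraries overlapped, and both resistant libraries lay below all 4. The log2 difference of treated resistant cells was -0.69 from treated parental cells (SE 0.09, adjusted p = 0.000528, limma) and -0.57 from DMSO (adjusted p = 0.00151), and neither call was lost in any alternative run. SRPR moved less, by -0.24 from treated parental cells (adjusted p = 0.0129), and this call was lost without either treated parental or either resistant library, at -0.23 to -0.25, and under median-ratio and upper-quartile scaling. The drug's change in parental cells was 0.12 for SRPRB (95% interval -0.08 to 0.33) and 0.09 for SRPR (95% interval -0.05 to 0.23), and both passed without DMSO library B, at 0.25 and 0.16. SRPR in treated resistant cells against DMSO, -0.15, had no call (adjusted p = 0.0785) and was a call at -0.22 once DMSO library A was left out.

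Among the 7 genes of the channel and its partners, 5 rose in parental cells with the drug and none fell: SEC63, TRAM1, SEC61A2, SEC62 and SEC61A1. Of all tested genes, 22.6% rose and 18.2% fell. The counts for the 7 were 5 and 0 with median-ratio scaling, against 21.1% and 20.7% of all genes. With upper-quartile scaling they were 4 and 0, against 15.6% and 28.5%, and SEC61A1 was lost. SEC63 carries a J domain that recruits BiP to the channel. It stood at 43.5 and 42.5 TPM with DMSO, 73.1 and 71.5 TPM in treated parental cells and 46.4 and 54.3 TPM in treated resistant cells. The treated parental pair lay apart above the other 4 libraries. SEC63 rose by 0.74 (SE 0.08, adjusted p = 0.000605, limma), a 1.67-fold change, and was lower in treated resistant cells by -0.52 (adjusted p = 0.00121). Resistant cells lay 0.22 above DMSO without a call (adjusted p = 0.0505), and this value passed without resistant library A at 0.33 and under 4 other settings.

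SEC62 works beside SEC63 on chains that enter after translation and has a further known role in the autophagy of ER membrane. Its level was 59.9 and 58.0 TPM with DMSO, 77.0 and 75.3 TPM in treated parental cells and 88.0 and 88.75 TPM in treated resistant cells. The 3 groups did not overlap and stepped up in that order, unlike those of SEC63. SEC62 was higher by 0.36 in treated parental cells than with DMSO (SE 0.05, adjusted p = 0.00149, limma), by 0.58 in treated resistant cells than with DMSO (SE 0.05, adjusted p = 0.000112) and by 0.21 in treated resistant than in treated parental cells (adjusted p = 0.0085). The last call was lost without treated parental library B or either resistant library, at 0.20 to 0.22, and the other two were kept in all 15 alternatives.

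TRAM1, a membrane protein that touches the entering chain, stood at 57.6 and 61.1 TPM with DMSO, 92.3 and 89.5 TPM in treated parental cells and 69.9 and 68.1 TPM in treated resistant cells. Its treated parental pair was highest and the DMSO pair lowest, with no overlap. TRAM1 rose by 0.61 in parental cells (SE 0.05, adjusted p = 0.000321, limma), was lower by -0.39 in treated resistant than in treated parental cells (adjusted p = 0.000795) and lay 0.21 above DMSO in treated resistant cells (adjusted p = 0.0138). The last of these was lost without either resistant library, with values from 0.17 to 0.26 over the libraries left out.

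**Figure D2:**
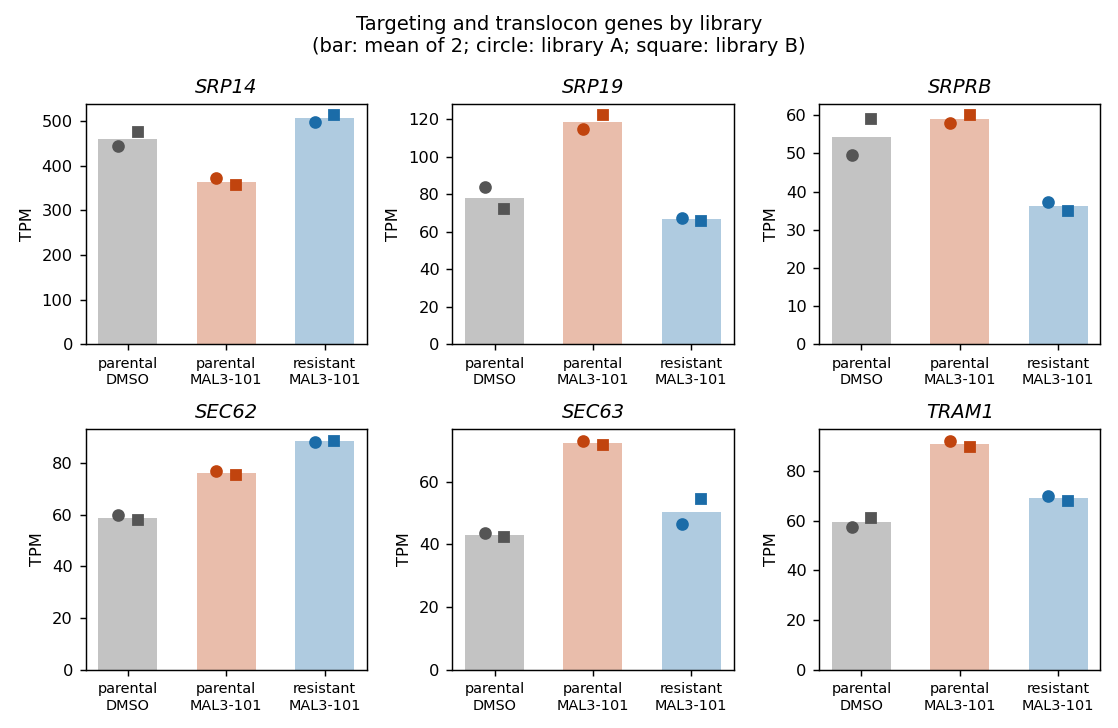
TPM of 6 targeting and translocon genes (panels) in the 3 groups: bars are means of 2 libraries, circles are library A and squares library B. SRP14 is lowest and SRP19, SEC63 and TRAM1 are highest in treated parental cells, SEC62 is highest and SRPRB lowest in treated resistant cells.

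The channel itself is built from an alpha subunit, SEC61A1 or its less abundant paralog SEC61A2, with SEC61B and SEC61G as its small subunits. SEC61A1 stood at 173 and 182 TPM with DMSO, 220.21 and 217 TPM in treated parental cells and 145 and 144 TPM in treated resistant cells. The treated parental pair was highest and the resistant pair lowest. Its log2 fold change was 0.30 with the drug in parental cells (SE 0.05, adjusted p = 0.0024, limma), -0.59 between treated resistant and treated parental cells (SE 0.05, adjusted p = 5.38e-05) and -0.30 between treated resistant cells and DMSO (adjusted p = 0.00146). SEC61A2 was at 14.5 and 13.6 TPM, 19.8 and 19.9 TPM, and 15.8 and 15.02 TPM in the same order. It rose with the drug in parental cells by 0.47 (adjusted p = 0.00363) and was lower in treated resistant cells by -0.35 (adjusted p = 0.00828). That last call was lost without either treated parental library or without resistant library B, at -0.31 to -0.38 over the libraries left out. It was also lost under upper-quartile scaling, at -0.18.

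The small subunits followed neither alpha paralog. SEC61B stayed between 228 and 241 TPM in the 4 parental libraries and was at 279 and 274 TPM in the treated resistant ones, above all 4. It was higher in treated resistant cells by 0.23 than in treated parental cells (adjusted p = 0.00356, limma) and by 0.27 than with DMSO (adjusted p = 0.00227), in every alternative run. SEC61G lay between 229.59 and 259 TPM in all 6 libraries with no call. The difference of treated resistant from treated parental cells, 0.11 (95% interval -0.02 to 0.24), passed for SEC61G only in 3 alternatives, upper-quartile and median-ratio scaling and the fit on the 4 libraries compared. The resistant libraries thus held the lowest SEC61A1 levels beside the highest SEC61B levels of the 6 libraries.

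Promoter sequences were searched for letters that factors of the unfolded protein response and of the heat shock response are known to bind. RefSeq windows on GRCh38.p14, from 250 bases before to 50 bases after a transcription start, matched 28 of the 34 genes by symbol in 36 windows, and SRPR, TRAM1, SPCS1, STT3B, RPN1 and TUSC3 were not matched. A total of 5 motifs were searched on both strands for exact matches, so variants with a changed base were not counted. The ER stress element (CCAAT, any 9 bases, then CCACG) was in 0 of the 36 windows and in 0.0769% of all 35116 windows, and its second form (ATTGG, any 1 base, then CCACG) in 0 and 0.0541%. The core of the unfolded protein response element, TGACGTGG, whose reverse strand shares the CCACG of the other 2, was in 4 of the 36 windows and in 0.729% of all. The C/EBP-ATF element, TGATGNAA, was in 1 window, that of SRPRB, and in 3.62% of all. The heat shock element (GAA, 2 bases, TTC, 2 bases, GAA) was in 0 windows and in 0.49% of all. Of the 72 matched genes of the other pathway lists described further on, 8 held either form of the ER stress element, HSPA5, CALR, CANX, HYOU1, XBP1, HERPUD1, SDF2L1 and ALG12.

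The 4 windows with the core belong to SRP19 and SEC62, which rose in parental cells with the drug, and to SSR3 and SSR4, which did not pass there. The 150 bases before the starts of SRP19 (GRCh38.p14, chr5:112861137-112861286, plus strand) and SEC62 (chr3:169966657-169966806, plus strand) are shown because both genes rose. Those of HSPA5 (chr9:125241344-125241493, minus strand) are shown as the BiP gene with an exact match to the ER stress element. Each runs 5′ to 3′ towards the start, and capitals mark the match, which in SRP19 and SEC62 is the core read on the opposite strand. 
SRP19: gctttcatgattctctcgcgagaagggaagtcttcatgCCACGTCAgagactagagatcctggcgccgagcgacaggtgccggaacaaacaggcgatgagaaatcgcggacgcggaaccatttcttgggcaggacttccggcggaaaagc
SEC62: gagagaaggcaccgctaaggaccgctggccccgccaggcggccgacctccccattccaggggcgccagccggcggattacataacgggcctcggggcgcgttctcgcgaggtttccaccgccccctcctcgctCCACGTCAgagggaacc
HSPA5: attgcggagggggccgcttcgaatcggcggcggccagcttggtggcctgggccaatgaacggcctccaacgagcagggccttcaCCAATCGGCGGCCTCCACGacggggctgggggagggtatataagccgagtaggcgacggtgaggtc
The SRP19 match spans positions -112 to -105 and the SEC62 match -17 to -10, counted from the transcription start. A match is a description of the letters and not of binding, and genes without one rose as well, among them SEC63 and MAGT1.

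The TRAP complex, encoded by SSR1, SSR2, SSR3 and SSR4, sits beside the channel and helps some signal sequences to enter. None of its 4 genes passed in parental cells with the drug, where the log2 values ran from -0.07 to 0.24. Of all tested genes, 22.6% rose and 18.2% fell there, so most had no call either. SSR4 was the exception in resistant cells: it stood at 170 and 189 TPM with DMSO, 168 and 173 TPM in treated parental cells and 133 and 129.62 TPM in treated resistant cells. Both resistant libraries lay below the other 4, which overlapped. The difference of SSR4 was -0.37 from treated parental cells (adjusted p = 0.00161, limma), lost under upper-quartile scaling at -0.20, and -0.44 from DMSO (SE 0.06, adjusted p = 0.000851), kept in every alternative. SSR1 ranged from 52.8 to 61.6 TPM, SSR2 from 178 to 204 TPM and SSR3 from 87.6 to 118 TPM over the 6 libraries, with no call in any comparison. These depended on the DMSO pair, and for SSR2 also on the scaling. Without DMSO library A, SSR1 (0.13) passed as higher and SSR4 (-0.15) as lower in parental cells with the drug. Without DMSO library B, SSR3 (0.37) passed as higher there. For treated resistant against treated parental cells, SSR1 (-0.11) and SSR3 (-0.18) passed without either DMSO library and SSR2 (0.08) without DMSO A. All 3 also passed in the fit on the 4 libraries compared. SSR2 passed there with median-ratio and upper-quartile scaling as well, at 0.19 and 0.25. Against DMSO, SSR1 (-0.20), SSR2 (0.17) and SSR3 (0.19) passed without DMSO B, and SSR2 also with median-ratio scaling.

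The signal peptidase cuts with a catalytic subunit, SEC11A or its paralog SEC11C, held by SPCS1, SPCS2 and SPCS3. SPCS2 and SEC11C rose in parental cells with the drug. SPCS2 stood at 121 and 110.45 TPM with DMSO, 150.24 and 149 TPM in treated parental cells and 129.55 and 127 TPM in treated resistant cells, with the treated parental pair highest and no overlap. It rose by 0.37 (SE 0.06, adjusted p = 0.00218, limma) and was lower by -0.22 in treated resistant than in treated parental cells (adjusted p = 0.0119). The latter call was lost without either treated parental or either resistant library, at -0.21 to -0.23. It was also lost under median-ratio and upper-quartile scaling, at -0.11 and -0.05. Against DMSO, resistant cells gave 0.15 (adjusted p = 0.053), which passed without DMSO library A at 0.22. It also passed with a filter of 5 TPM, with median-ratio and upper-quartile scaling, and without mitochondrially encoded genes.

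SEC11C had the largest SE of the 34 genes. Its level was 12.8 and 19.9 TPM with DMSO, 24.2 and 27.1 TPM in treated parental cells and 17.8 and 16.7 TPM in treated resistant cells. The DMSO libraries lay further apart than either drug pair and enclosed the resistant ones. The change of 0.65 (SE 0.18, adjusted p = 0.0259, limma) and the difference of -0.54 between treated resistant and treated parental cells (SE 0.18, adjusted p = 0.0367) were each lost without any 1 of the 4 treated libraries, with values of 0.34 to 0.95 and -0.46 to -0.62 over all libraries left out. Upper-quartile scaling also lost both, at 0.51 and -0.38, and median-ratio scaling the latter, at -0.44. The major paralog SEC11A was at 200.07 and 174 TPM, 199 and 199 TPM, and 208 and 199.57 TPM, with the DMSO library B below the other 5 and no call. SEC11A passed without DMSO library A, as higher by 0.19 in treated parental and by 0.22 in treated resistant cells than in DMSO library B alone. It also passed with upper-quartile scaling between the treated groups, at 0.21, and with median-ratio scaling against DMSO in treated resistant cells. SEC11C passed against DMSO library A alone at 0.41 in treated resistant cells.

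SPCS1 stood at 89.0 and 89.9 TPM with DMSO, 79.5 and 87.0 TPM in treated parental cells and 65.3 and 68.0 TPM in treated resistant cells. Its resistant pair was lowest and did not overlap the others. SPCS1 was lower in treated resistant cells by -0.42 than with DMSO (SE 0.06, adjusted p = 0.00106, limma), kept in every alternative, and by -0.32 than in treated parental cells (adjusted p = 0.00335), lost under upper-quartile scaling at -0.14. SPCS3 lay between 38.4 and 45.2 TPM in all 6 libraries with no call. In parental cells with the drug, SPCS1 and SPCS3 had values of -0.10 and -0.16, and upper-quartile scaling turned both into calls, at -0.24 and -0.29. The counts for the signal peptidase there thus changed from 2 higher and 0 lower to 1 higher and 2 lower. Of all tested genes, 22.6% were higher and 18.2% lower, and 15.6% and 28.5% with upper-quartile scaling.

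The oligosaccharyltransferase exists in a pair of forms. The form built on STT3A, with OSTC and KRTCAP2, sits at the channel and glycosylates chains as they enter, and the form built on STT3B, with TUSC3 or MAGT1, acts on sites the first has skipped. RPN1, RPN2, DDOST and DAD1 belong to both. In treated resistant cells 6 of the 10 genes were lower than with DMSO and 0 higher, and against treated parental cells 6 were lower and 1, DAD1, higher. Of all tested genes, 29.7% were lower and 20.9% higher against DMSO, and 34.8% and 21.3% against treated parental cells. With median-ratio and with upper-quartile scaling the counts lower and higher were 5 and 0 against DMSO, and 4 and 1 against treated parental cells. Of all genes, 25.5% and 26.1% were lower and higher against DMSO with median-ratio scaling, and 27.7% and 23.3% with upper-quartile scaling. Against treated parental cells the shares were 28.9% and 27.8%, and 25.2% and 31.5%. In parental cells with the drug, 4 rose and 2 fell, and upper-quartile scaling turned this balance to 2 and 4. Of all tested genes, 22.6% rose and 18.2% fell there, and 15.6% and 28.5% with upper-quartile scaling. Without any 1 treated library fewer of the 10 passed there in each direction, as did fewer of all tested genes. The summed level of the 10 genes was 1624 and 1644 TPM with DMSO, 1666 and 1630.4 TPM in treated parental cells and 1407 and 1401 TPM in treated resistant cells.

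Of the STT3B form, MAGT1 had the largest difference of the 34 genes in parental cells with the drug and between the treated groups, but not in treated resistant cells against DMSO, where TUSC3 had. MAGT1 encodes an oxidoreductase-like subunit, also known as a magnesium transporter. Its level was 31.1 and 27.5 TPM with DMSO, 55.4 and 51.2 TPM in treated parental cells and 20.6 and 22.1 TPM in treated resistant cells. The groups did not overlap. MAGT1 rose by 0.84 in parental cells (SE 0.08, adjusted p = 0.00046, limma), a 1.79-fold change, was lower by -1.28 in treated resistant than in treated parental cells (SE 0.08, adjusted p = 3.02e-05) and lower by -0.44 than with DMSO (adjusted p = 0.00414), and each call was kept in all 15 alternatives. STT3B stood at 45.3 and 43.2 TPM with DMSO, 51.5 and 50.4 TPM in treated parental cells and 30.6 and 28.9 TPM in treated resistant cells. The resistant pair was lowest by a wide margin. The difference was -0.76 from treated parental cells (SE 0.06, adjusted p = 7.15e-05) and -0.56 from DMSO (SE 0.06, adjusted p = 0.000336), each kept in every alternative. The rise of STT3B in parental cells, 0.20 (adjusted p = 0.0365), was lost in 10 of 15 alternatives, among them the fits without any 1 library other than DMSO A, at 0.17 to 0.22.

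TUSC3, the paralog of MAGT1, fell in parental cells with the drug, where MAGT1 rose. Its level was 97.3 and 118 TPM with DMSO, 89.2 and 83.9 TPM in treated parental cells and 67.2 and 69.3 TPM in treated resistant cells. The groups stepped down in that order without overlap. TUSC3 was lower by -0.65 in treated resistant cells than with DMSO (SE 0.09, adjusted p = 0.001, limma), kept in every alternative. TUSC3 fell in parental cells by 0.31 on the log2 scale (SE 0.09, adjusted p = 0.0315) and differed by -0.34 between treated resistant and treated parental cells (adjusted p = 0.0157). These calls were lost without any 1 of the 4 treated libraries, with values of -0.17 to -0.45 and -0.30 to -0.38 over all libraries left out. The call between the treated groups was also lost under median-ratio and upper-quartile scaling, at -0.23 and -0.17.

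Of the STT3A form, STT3A itself stood at 105 and 116 TPM with DMSO, 103 and 98.3 TPM in treated parental cells and 99.6 and 101 TPM in treated resistant cells, with the DMSO pair highest and the drug groups overlapping. It had no call in any comparison: -0.13 with the drug in parental cells (95% interval -0.28 to 0.01), 0.00 between the treated groups (95% interval -0.15 to 0.14) and -0.13 between treated resistant cells and DMSO (95% interval -0.28 to 0.01). Without DMSO library A the first and the last passed, at -0.20 and -0.21, and the first also passed with upper-quartile scaling, at -0.27. OSTC ranged from 150.41 to 169 TPM and rose by 0.14 in parental cells (adjusted p = 0.0402, limma), lost in 10 of 15 alternatives, among them without any 1 of the 4 treated libraries at 0.13 to 0.15, and at -0.0036 under upper-quartile scaling. Treated resistant against treated parental cells gave -0.11 for OSTC (adjusted p = 0.0588), which passed without either DMSO library. KRTCAP2 ranged from 67.2 to 90.7 TPM and was lower in treated resistant cells by -0.33 than in treated parental cells (adjusted p = 0.0125), lost without either treated parental library or resistant library B at -0.28 to -0.38 over the libraries left out. Median-ratio and upper-quartile scaling also lost this KRTCAP2 call, at -0.23 and -0.16. Its difference of -0.25 from DMSO (adjusted p = 0.04) was lost in 11 of 15 alternatives, among them without any 1 library other than DMSO A, at -0.13 to -0.30, and its 0.08 in parental cells passed without DMSO library B at 0.20. Thus STT3B, TUSC3 and MAGT1 were all lower in treated resistant cells than with DMSO in every alternative, while of STT3A, OSTC and KRTCAP2 only KRTCAP2 was called there, and no test compared the 2 forms.

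Of the subunits both forms share, DDOST differed in both comparisons of resistant cells. It stood at 268 and 261 TPM with DMSO, 271 and 263 TPM in treated parental cells and 183 and 186 TPM in treated resistant cells. The 4 parental libraries overlapped and both resistant ones lay far below them. The difference of DDOST was -0.53 from treated parental cells (SE 0.04, adjusted p = 7.41e-05, limma) and -0.52 from DMSO (SE 0.04, adjusted p = 0.000103), kept in every alternative, and the drug in parental cells gave 0.01 (95% interval -0.09 to 0.11, adjusted p = 0.841). RPN1 stood at 204 and 190.18 TPM with DMSO, 243 and 244 TPM in treated parental cells and 169.89 and 162 TPM in treated resistant cells, again without overlap. RPN1 rose by 0.31 (adjusted p = 0.00367), was lower by -0.55 in treated resistant than in treated parental cells (SE 0.05, adjusted p = 0.000133), both kept in every alternative, and lower than with DMSO by -0.25 (adjusted p = 0.0063), lost without resistant library B at an adjusted p of 0.068.

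DAD1, a further shared subunit, singled out after its values were seen, stood at 195 and 195 TPM with DMSO, 164 and 162 TPM in treated parental cells and 192 and 195 TPM in treated resistant cells. Only the treated parental pair was low, and the other 4 libraries overlapped. DAD1 fell by 0.26 on the log2 scale in parental cells (SE 0.04, adjusted p = 0.00297, limma) and was 0.25 higher in treated resistant than in treated parental cells (adjusted p = 0.00204), kept in every alternative. RPN2, among the most abundant of the 34, lay between 414 and 451 TPM in all libraries with no call. Its value of -0.11 for treated resistant cells against DMSO (adjusted p = 0.0552) passed without either DMSO library, at -0.12 and -0.11, and with a filter of 5 TPM. In parental cells with the drug, RPN2 passed as lower with upper-quartile scaling, at -0.21.

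**Figure D3:**
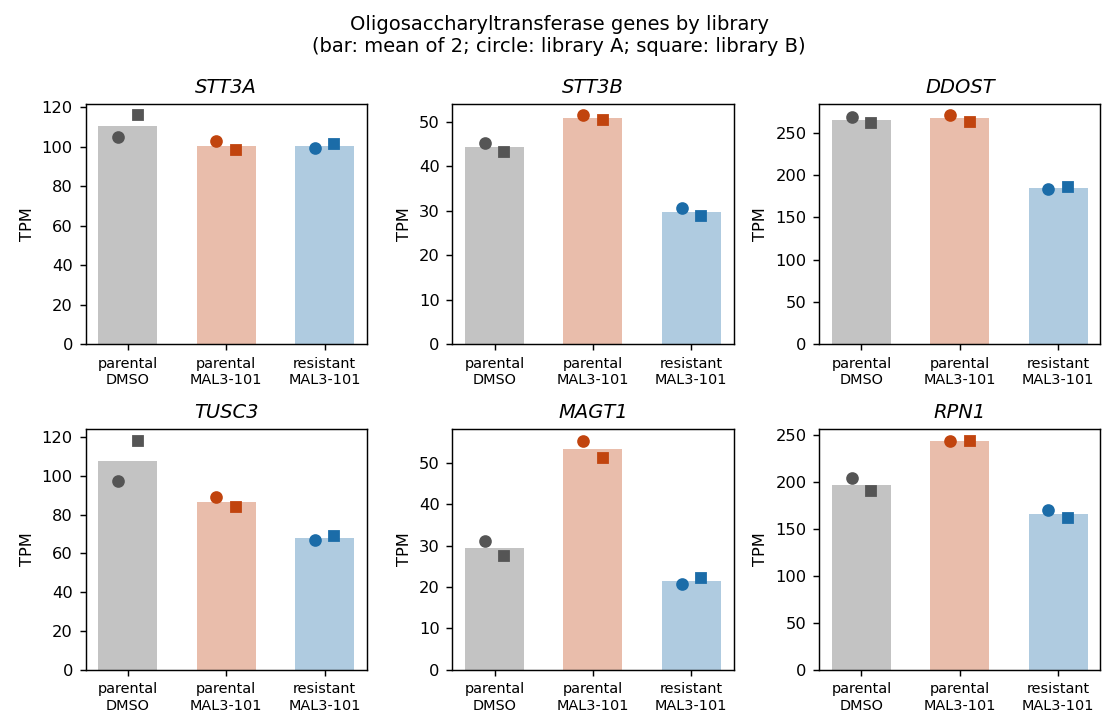
TPM of 6 oligosaccharyltransferase genes (panels) in the 3 groups: bars are means of 2 libraries, circles are library A and squares library B. STT3B, DDOST and TUSC3 are lowest in treated resistant cells, and MAGT1 and RPN1 are highest in treated parental cells.

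Paralog pairs were also set against each other within each library. TUSC3 was 3.13 and 4.30 times MAGT1 with DMSO, 1.61 and 1.64 times in treated parental cells and 3.26 and 3.13 times in treated resistant cells, so the treated parental ratios lay below the other 4. The sum of both was 128 and 146 TPM, 145 and 135 TPM, and 87.9 and 91.3 TPM, with the parental groups overlapping and the resistant libraries below them. STT3B was 0.432 and 0.373 times STT3A with DMSO, 0.501 and 0.513 times in treated parental cells and 0.307 and 0.285 times in treated resistant cells, with no overlap. SEC61A2 was 0.0836 and 0.0745 times SEC61A1 with DMSO, 0.0901 and 0.0916 times in treated parental and 0.109 and 0.104 times in treated resistant cells, again without overlap but with the resistant cells highest. SEC11C was 0.0639 and 0.114 times SEC11A with DMSO, 0.122 and 0.136 times in treated parental and 0.0856 and 0.0838 times in treated resistant cells, where the resistant values fell between those of the DMSO libraries. A ratio within a library does not depend on how libraries are scaled. These ratios were not tested.

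Other genes of the same path were taken from lists by function. In parental cells with the drug, 22.6% of all tested genes rose and 18.2% fell. In treated resistant against treated parental cells, 21.3% of all tested genes were higher and 34.8% lower. BiP and its partners at the translocon showed larger values than the 34 genes: 7 of 8 rose in parental cells with the drug and none fell, with a median log2 fold change of 1.26. HSPA5 stood at 652.53 and 624 TPM with DMSO, 2908 and 2776 TPM in treated parental cells and 746 and 753 TPM in treated resistant cells. The treated parental pair stood far above the other 4 libraries. HSPA5 rose by 2.15 (adjusted p = 8.09e-07, limma) and was lower by -1.92 in treated resistant cells (adjusted p = 1.1e-06). DNAJB9, a J-domain partner of BiP, changed by 2.34 and -2.38 in the same comparisons, and DNAJC3, another, by 1.77 and -1.32. Treated resistant against treated parental cells gave 0 higher and 6 lower of the 8.

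All 7 stress sensors and factors rose in parental cells with the drug, with a median of 2.38, and 6 of the 7 were lower in treated resistant than in treated parental cells, with a median of -1.81. Of all tested genes, 22.6% rose in the first comparison and 34.8% were lower in the second. Against DMSO, 20.9% were higher in treated resistant cells. DDIT3, which encodes the stress factor CHOP, rose by 4.12, HERPUD1, a protein of ER-associated degradation, by 2.85, and XBP1, a factor that drives ER genes, by 2.74. ATF4, the factor of the integrated stress response, rose by 1.39. Treated resistant cells kept 6 of the 7 above DMSO, among them DDIT3 by 1.56 and ATF4 by 1.01. The counts of the stress factors were the same with either other scaling, and those of the BiP list were 7 and 6 higher in parental cells. Against these, the largest rise among the 34 genes was the 0.84 of MAGT1.

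The lectin folding cycle, which reads N-glycans once they are attached, had 7 of 14 genes higher and 2 lower in parental cells with the drug (5 and 4 with upper-quartile scaling). The shares of all tested genes were 22.6% and 18.2%, and 15.6% and 28.5% with that scaling. For treated resistant against treated parental cells, 34.8% of all tested genes were lower and 21.3% higher. Fewer of the 14 rose without treated parental library A and more fell without DMSO library B, as for all tested genes. Treated resistant against treated parental cells gave 8 lower and 1 higher for the lectin folding cycle. Fewer were lower without any 1 treated library and more higher without either DMSO library, as for all tested genes. Its lectin chaperones CALR and CANX rose by 0.74 and 0.59. CANX stood at 404 and 414 TPM with DMSO, 639.5 and 595 TPM in treated parental cells and 235 and 233 TPM in treated resistant cells. Its order was the same as that of MAGT1, SEC61A1 and RPN1, with the resistant pair below DMSO. CANX was lower by -1.40 in treated resistant than in treated parental cells (adjusted p = 2.84e-06, limma) and by -0.80 than with DMSO (adjusted p = 2.96e-05). MLEC, a lectin that binds early glycans, was lower by -0.97 in treated resistant cells than with DMSO.

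The enzymes that build the lipid-linked glycan for the oligosaccharyltransferase had 10 of 24 genes higher and 2 lower in parental cells with the drug, and 8 and 6 with upper-quartile scaling. Of all tested genes, 22.6% were higher and 18.2% lower, and 15.6% and 28.5% with that scaling. In treated resistant cells, 34.8% of all tested genes were lower and 21.3% higher than in treated parental cells, and 29.7% and 20.9% against DMSO. In parental cells with the drug, fewer of the 24 rose without treated parental library B. More fell without DMSO library A and fewer without any 1 treated library. The shares of all tested genes moved the same way. The mannosyltransferase ALG2 rose by 0.77, ALG13, part of the enzyme that adds the second sugar, by 0.72, and SRD5A3, a reductase of dolichol synthesis, by 0.62. Treated resistant cells had 10 lower and 4 higher than treated parental cells, and 7 and 5 with upper-quartile scaling, against 25.2% and 31.5% of all genes. Fewer were higher without any 1 treated library, as for all tested genes. Among the lowest called values there were ALG5 at -0.65 and NUS1 at -0.56. Against DMSO, 8 were higher and 5 lower. Fewer were higher without either resistant library and fewer lower without resistant library B, as for all tested genes.

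Other routes into the membrane had calls in both directions. Of all tested genes, 22.6% rose and 18.2% fell in parental cells with the drug, and 15.6% and 28.5% with upper-quartile scaling. For treated resistant against treated parental cells, 34.8% were lower and 21.3% higher. The ER membrane protein complex had 3 of 10 genes higher and 1 lower in parental cells with the drug (3 and 3 with upper-quartile scaling), with EMC9 at 1.04, MMGT1 at 0.46 and EMC3 at 0.35. More were lower without DMSO library A, as for all tested genes, and the 1 lower was lost without either treated parental library. For treated resistant against treated parental cells it had 5 lower and 1 higher, the latter lost without treated parental library A or resistant library B, with EMC9 at -0.71. The path for tail-anchored proteins had 4 of 7 genes lower and 2 higher with the drug, UBL4A at -0.56 and ASNA1 at -0.38 among the lower ones (4 and 0 with upper-quartile scaling). Fewer of the 7 were lower without any 1 treated library, as for all tested genes. The 2 higher were lost without any 1 of these or DMSO library B. CAMLG, a receptor of that path, was at -1.01 in treated resistant against treated parental cells. Of 15 further translocon and oligosaccharyltransferase genes found of 16 listed, 4 rose and 3 fell with the drug, near the shares of all tested genes. Upper-quartile scaling gave 0 and 5. Fewer of the 15 rose without any 1 treated library, and fewer fell without treated parental library A. More fell without DMSO library A. The shares of all tested genes moved the same way. In treated resistant against treated parental cells, 7 of these were lower and 4 higher, with NOMO2 at -0.97 and NOMO1 at -0.85 lower and TRAM1L1 at 0.95 higher. NOMO1, NOMO2 and NOMO3, the last lower by -0.60, are near-identical copies whose reads may have been divided between them. Their calls among the 7 are thus not independent. The small subunit gene OST4 was higher by 0.39, and its level, 286 and 284 TPM in treated parental against 367 and 380.3 TPM in treated resistant cells, did not overlap.

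**Figure D4:**
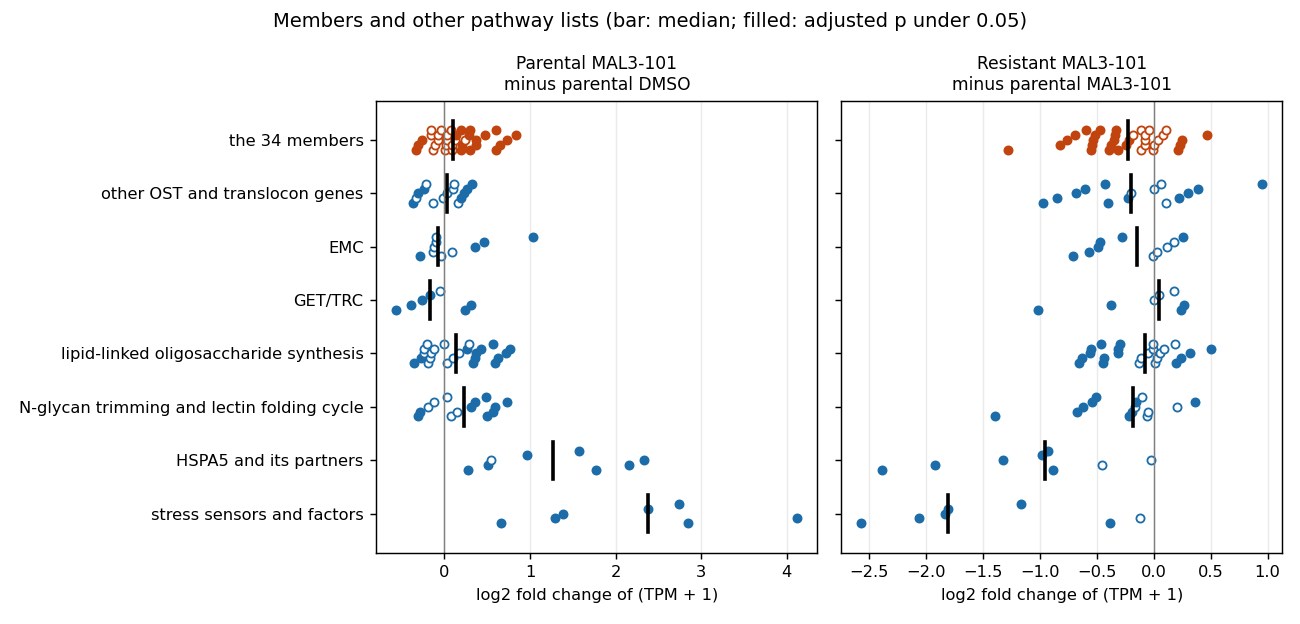
Log2 fold change of TPM + 1 (horizontal axis, different ranges in the panels) for the 34 genes (orange) and the 7 pathway lists (blue) in parental cells with MAL3-101 against DMSO (left) and treated resistant against treated parental cells (right); points are genes, filled where the adjusted p is under 0.05, and bars are medians. The 34 genes have medians of 0.11 and -0.23, while BiP and its partners have 1.26 and -0.96 and the stress factors 2.38 and -1.81.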

How the data were processed

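Paired-end RNA sequencing libraries were made with a TruSeq kit from total RNA, per the labels' protocols. The deposited values are TPM per gene name, written with 2 decimals. The submitters' processing notes name RSEM, DESeq and hg19, with neither versions nor roles. The aligner, annotation and use of strand were not given in the sources used here. TPM keeps no depth, so no counting interval is given.

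Groups came from the titles, and for the DMSO libraries from the description, which gives DMSO alone; their titles name both DMSO and MAL3-101. The values were tested as log2(TPM + 1) with limma 3.58.1 (trend; R 4.3.3) over all 6 libraries in 3 groups, for the 15148 genes whose mean reached 1 TPM in some group, with Benjamini-Hochberg adjustment over those genes. The 3 residual degrees of freedom were joined by 4.17 from the prior, and the median SE of a log2 fold change was 0.11. Folds are on the log2(TPM + 1) scale and understate changes of low genes. The fit was tested on simulated data. Promoter windows came from RefSeq on GRCh38.p14, and no coordinates of the hg19 build are used. Python 3.11.15, pandas 2.3.3 and matplotlib 3.10.9 made summaries and figures.

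The members, lists and motifs were chosen with earlier results of these data known. Each member is named; the 8 called members with the largest change per comparison and both genes of each paralog pair get every value, and SRP9, SRP14, SEC61B, DAD1, CANX and OST4 values were added after they were seen. At most 3 called genes of largest change per list and comparison are named, beside HSPA5, XBP1, DDIT3 and ATF4, and NOMO3 as a copy of NOMO1 and NOMO2. The values of 1 gene under this rule are not reported here. The 15 alternatives are a pseudocount of 0.1, no filter, a filter of 5 TPM, only the 4 libraries compared, no trend, a replicate block, median-ratio and upper-quartile scaling, TPM without mitochondrially encoded genes, and each of the 6 libraries left out, where the lone library of a group is assumed to vary like the others.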

Additional observations from a re-analysis of the deposited data

How the results depend on the processing

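Of 102 values (34 genes in 3 comparisons), 48 kept their side of the threshold in all 15 alternatives. The called ones among them also kept their direction. Values without a call could change sign: SEC61B in parental cells with the drug ran from -0.11 to 0.07 over the alternatives. Over the 1530 alternative values, 117 lost a call, 63 gained one and 1 both lost its call and changed sign. The last was OSTC in parental cells with the drug, at -0.003587 with upper-quartile scaling. Upper-quartile scaling gave 8 higher and 8 lower in parental cells with the drug, 10 lower and 7 higher in treated resistant against treated parental cells, and 7 higher in treated resistant cells against DMSO. The last count, 4 under the main settings, was also 7 with a filter of 5 TPM, 10 with median-ratio scaling and 7 without mitochondrially encoded genes. Of all tested genes, 20.9% were higher there under the main settings and 23.3% with upper-quartile scaling. The shares were 24.1%, 26.1% and 21.5% in the other 3 settings. Leaving out 1 library gave medians of the 34 genes from 0.09 to 0.16 in parental cells with the drug. In treated resistant cells against DMSO they ran from -0.12 to -0.07, and those of all tested genes from -0.09 to -0.04. The cause of these changes was not tested. Deviations of same-lettered libraries correlated at 0.026, -0.020 and -0.021 across genes, so no strong shared deviation was seen. These values cannot show whether the letters A and B pair the samples, which the labels do not say. With the letter as a replicate block, the counts were 14 higher and 4 lower, 4 and 18, and 4 and 12 in the 3 comparisons. The shares of all tested genes were then 21.8% and 17.4%, 21.0% and 34.4%, and 20.4% and 29.0%. TPM carries no depth, so the precision rests on the 2 libraries of a group, with a median SE of 0.11 on the log2 scale over all tested genes.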
